A study of Mus musculus with 12 samples.

Results

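Endothelial cells sorted from the long bones of tumor-bearing mice were compared with endothelial cells from tumor-free mice across all genes of the array that have a probe set naming a single gene symbol. The arrays were chosen by their titles, which name the cell type and the tumor status: 6 of the 12 arrays of the series, 3 from tumor-bearing and 3 from tumor-free mice. The other 6 arrays hold osteoblasts of mice in the same conditions and are used here as a reference. All mice were female C57BL/6. Tumor-bearing mice received 500000 EO771 cells, a mouse mammary cancer line from the same strain, by injection into the heart, and growth in the long bones was followed by bioluminescence for about 2 weeks. The sources used here do not state whether tumor-free mice received an injection, nor the age of the mice. Endothelial cells were gated as positive for Sca1 and CD31 and negative for GFP, Ter119 and CD45, and osteoblasts as positive for CD51 and negative for Sca1, CD31 and the same 3 exclusion markers. RNA of 5000 sorted cells was amplified for each array. The labels call the 3 arrays of a group biological replicates but do not say whether each array holds cells of 1 mouse or of a pool. P-values therefore measure the spread between these arrays. The design text gives 6 to 10 samples for the cell preparations.

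The vessels of the bone marrow are mostly sinusoids, thin-walled and leaky, fed by arterioles and by a capillary type rich in endomucin near growing bone. Their endothelium carries blood cells in and out of the marrow by means of adhesion molecules, and releases factors that maintain blood stem cells and bone-forming cells. Sinusoids are wrapped by reticular stromal cells that carry the leptin receptor and are the main source of the chemokine CXCL12 and of stem cell factor in the marrow. Gating on Sca1 is known to favour arteriolar over sinusoidal endothelium, but sinusoidal genes were bright in these arrays, as given below. In bone, disseminated mammary cancer cells lodge close to such vessels.

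Values are log2 intensities as deposited, so that a difference of 1 is a doubling. Each endothelial array had a median of 5.96 to 6.04 over its 34760 probe sets. Correlations of the deposited values were between 0.938 and 0.940 within the tumor-bearing group, between 0.945 and 0.954 within the tumor-free group and between 0.933 and 0.953 across the groups, so that an array was about as close to arrays of the other group as to those of its own. Of 19937 genes, 14217 were tested: those above the 40th percentile of all probe sets (5.51 to 5.61 in the endothelial arrays) in at least 3 of the 12 arrays. In a bulk sample, a lower level of a transcript in the same cells and a smaller share of the cells that carry it cannot be told apart.

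Genes of the endothelial junctions and receptors were far brighter in these 6 arrays than in osteoblasts. Pecam1, which encodes the sort marker CD31, was at 10.82 ± 0.16 with a tumor and 10.78 ± 0.05 without (mean log2 value ± SD, n = 3), against 6.04 ± 0.40 in tumor-free osteoblasts. The junction cadherin gene Cdh5 was at 11.70 ± 0.28 and 11.83 ± 0.02, and the endomucin gene Emcn at 11.09 ± 0.15 and 11.25 ± 0.08. Receptors for vessel growth factors differed as little. The VEGF receptor genes Kdr and Flt1 had differences of -0.06 (95% interval -0.37 to 0.25) and 0.09 (-0.21 to 0.38), and the angiopoietin receptor gene Tek 0.03 (-0.32 to 0.39), tumor-bearing minus tumor-free. These intervals, from the limma fit, allow changes of up to about 0.4 on the log2 scale and do not show equality. The sign of the differences of Pecam1, Cdh5, Kdr and Tek turned when single endothelial arrays were left out. Not every endothelial gene separated the cell types: Tal1 was at 6.50 ± 0.08 and 6.78 ± 0.14 against 6.60 ± 0.11 in tumor-free osteoblasts. Of 28 endothelial identity genes, all tested, 16 were above 0 and 12 below, with a median of 0.03. With limma, 0 passed over all genes. Before adjustment 4 had a p under 0.05, where 4.59% of all genes did. These were the stem and endothelial cell sialomucin gene Cd34 (0.89) as the 1 higher gene and, lower, the sprouting regulator gene Ecscr (-0.66) and the transcription factor genes Sox18 (-0.53) and Tal1 (-0.28). Ptprc, the gene of the excluded marker CD45, was above the 40th percentile in only 1 of the 6 endothelial arrays. Its values were 5.28 ± 0.17 and 5.56 ± 0.32.

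Across the genome, few genes separated the groups beyond the spread of the arrays. With limma and Benjamini-Hochberg adjustment over 14217 genes, 2 genes had an adjusted p under 0.05, which is 0.0141% of those tested, and both were higher in tumor-bearing mice. An unadjusted p under 0.05 was reached by 4.59% of genes, 373 higher (2.62%) and 280 lower (1.97%). The difference was above 0 in 51.4% of genes and below 0 in 48.6%. These shares are the background for the list counts below. The ranges of the 2 groups did not overlap in 10.5% of genes, with the tumor-bearing range on top in 5.63% and below in 4.87%. A difference of at least 1 was seen upward in 80 genes (0.563%) and downward in 54 (0.380%).

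The collagenase gene Mmp13 was at 7.53, 6.96 and 7.40 in the 3 endothelial arrays of tumor-bearing mice and at 5.40, 4.93 and 5.00 in those of tumor-free mice. Mmp13 cleaves fibrillar collagen and is known from hypertrophic cartilage and bone-forming cells. The groups did not overlap, and Mmp13 was above the 40th percentile in 3 of the 6 arrays. It rose, with a measured difference of 2.18 (SE 0.17, limma adjusted p = 0.00124). Since all 3 tumor-free values lay below the 40th percentile, the fold is given against that percentile, as at least 3.27-fold higher. The amylase gene Amy1, which encodes a starch-degrading enzyme known from salivary gland and liver, was at 8.03, 8.10 and 8.0 against 5.04, 5.53 and 5.85. The tumor-bearing arrays of Amy1 lay close together, and the lowest was above every tumor-free array. Amy1 rose by 2.57 (SE 0.21), or 5.95-fold, with the same adjusted p. Of its tumor-free arrays 1 of 3 was above the 40th percentile, and with the others set to that percentile the difference was 2.38. In osteoblasts of tumor-free mice the same probe sets read 12.16 ± 0.13 for Mmp13 and 8.98 ± 0.27 for Amy1 (n = 3). The part of cells or RNA from the other gate in these differences was not tested.

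The 250 bases before the annotated starts of both called genes are shown in the direction of transcription, from the RefSeq promoter table of build GRCm38.p6, so that the regulatory sequence beside the only genes called can be compared. The capitals mark every match to 4 motifs searched on both strands: AP-1 (TGANTCA), RUNX (TGTGGT), ETS (AGGAAG) and the TATA box (TATAAA). No 2 matches overlap in these windows.
Mmp13, chr9:7272264-7272513, plus strand: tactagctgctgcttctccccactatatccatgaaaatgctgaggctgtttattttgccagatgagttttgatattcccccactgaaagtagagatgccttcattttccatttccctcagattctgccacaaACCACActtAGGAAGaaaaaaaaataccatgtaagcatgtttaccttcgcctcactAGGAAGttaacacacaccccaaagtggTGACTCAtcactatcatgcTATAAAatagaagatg
Amy1, first start, chr3:113577751-113578000, minus strand: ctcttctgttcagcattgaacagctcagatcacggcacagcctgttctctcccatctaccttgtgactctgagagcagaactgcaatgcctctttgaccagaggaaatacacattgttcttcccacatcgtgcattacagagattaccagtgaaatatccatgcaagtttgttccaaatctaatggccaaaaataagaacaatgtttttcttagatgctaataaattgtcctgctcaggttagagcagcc
Amy1, second start, chr3:113574763-113575012, minus strand: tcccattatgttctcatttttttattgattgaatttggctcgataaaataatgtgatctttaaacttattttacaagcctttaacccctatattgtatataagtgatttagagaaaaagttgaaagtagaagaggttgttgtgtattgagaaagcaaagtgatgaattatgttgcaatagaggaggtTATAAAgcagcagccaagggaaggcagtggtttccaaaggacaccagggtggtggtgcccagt

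The Mmp13 window holds 1 AP-1 match whose first base lies 35 bases before the start, 1 RUNX match at 118 on the opposite strand, 2 ETS matches at 109 and 62, and a TATA match at 16. AP-1, RUNX and ETS are families of transcription factors, and RUNX proteins include the main regulator of bone formation. Among 32851 windows of the same length in the table, 6.75% hold the AP-1 letters, 14% the RUNX letters, 29.5% the ETS letters and 12.4% the TATA letters. The window of the first Amy1 start holds none of the 4 motifs, and that of the second a TATA match at 63. A match describes the letters only and shows no binding, and the array does not tell which Amy1 start was used.

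The amylase genes are near copies in a cluster, and 3 further probe sets of the array name Amy2a2, Amy2a5 and Amy2b together. These were not in the gene test because they name several genes. The probe set 10501494 was at 8.41, 8.73 and 8.80 in tumor-bearing against 5.00, 5.95 and 5.97 in tumor-free endothelial arrays, a difference of 3.01. The probe set 10501533 was at 8.29, 9.12 and 8.47 against 7.17, 6.96 and 7.07, a difference of 1.56. In both, every tumor-bearing array was above every tumor-free array. The probe set 10501544 was dim, above the 40th percentile in 0 of 6 arrays, and differed by 0.14. In a limma fit of all 22714 probe sets that passed the same filter, named or not, 10501494 had an adjusted p of 0.0128 and 10501533 of 0.0708. Which amylase gene the signal came from cannot be told apart with probe sets of close copies. Of 7 tested members of the digestive hydrolase list 3 were above 0, with a median of 0.00. Amy1 was the 1 member called, and the next smallest p belonged to the carboxypeptidase gene Cpa1 (-0.17).

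**Figure D1:**
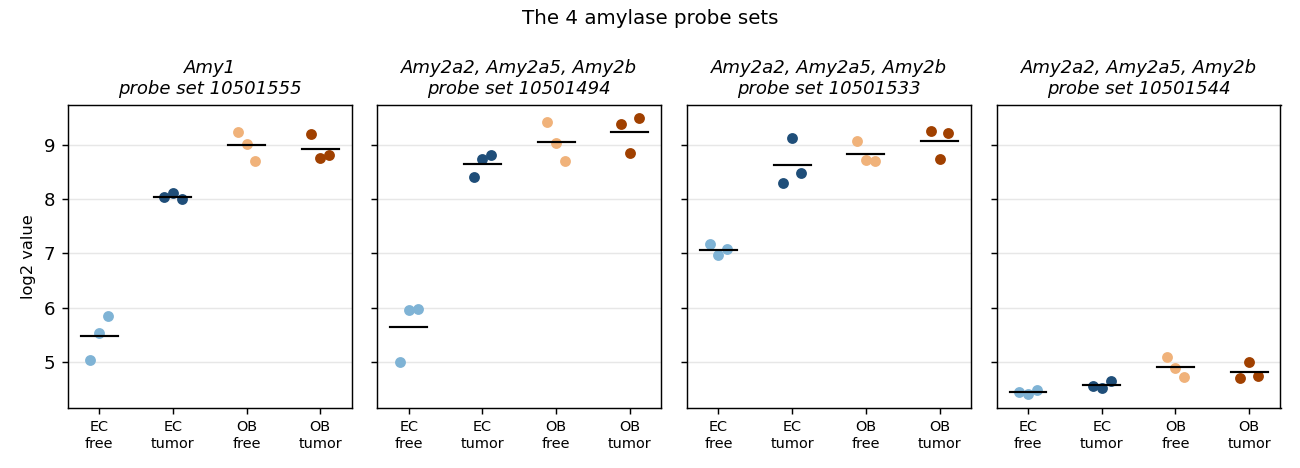
Log2 values of the 4 amylase probe sets (vertical axis) in each of the 12 arrays, by group on the horizontal axis (EC, endothelial cells; OB, osteoblasts; free, tumor-free; tumor, tumor-bearing). Each point is 1 array and each line a group mean (n = 3). In 3 of the probe sets the endothelial arrays of tumor-bearing mice lie above those of tumor-free mice, and 10501544 stays at or below 5.09 in every array.

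The count of called genes changed with single arrays. Leaving out tumor-bearing endothelial replicate 1 gave 4 genes, with the prostaglandin-degrading enzyme gene Hpgd and, lower, Lacc1 added to Mmp13 and Amy1. Without replicate 2 of that group it became 6, adding the ceramidase gene Acer2, the adhesion gene Emb, the insulin receptor substrate gene Irs1 and the receptor phosphatase gene Ptprd. Mmp13 and Amy1 both passed whichever of the 12 arrays was left out. In a fit of the 6 endothelial arrays alone Mmp13 did not pass (limma adjusted p = 0.0703), Amy1 did (0.0469), and Dnajc13, which encodes an endosomal co-chaperone, passed as lower. Dnajc13 was at 9.41, 8.99 and 9.18 against 10.96, 10.85 and 10.94. In the limma fit of all 12 arrays its adjusted p was 0.753. That fit takes 1 spread per gene from all 4 groups, so the spread of the osteoblast arrays enters the endothelial test. For Mmp13 the SDs were 0.30 and 0.25 in the endothelial and 0.09 and 0.13 in the osteoblast groups, tumor-bearing first. The rankings below rest on the same fit. The genes outside the naming rule were chosen after their values were seen.

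The 10 genes with the next highest moderated statistics did not pass, with limma adjusted p between 0.122 and 0.216. In each of them the 3 tumor-bearing arrays lay above the 3 tumor-free arrays, as in 5.63% of all genes. The choice by this statistic favours such genes, so the separation adds no support. Several encode secreted proteins or receptors known from stromal cells. The growth factor gene Fgf7, which stimulates epithelial cells, was at 7.53, 6.95 and 7.40 against 4.80, 4.73 and 5.71, a difference of 2.22 (SE 0.32). The leptin receptor gene Lepr was at 10.20, 9.34 and 8.82 against 8.03, 7.28 and 7.43, a difference of 1.87 (SE 0.32). For Lepr the array of replicate 1 was the highest in each group.

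The complement inhibitor gene Serping1 was at 8.68, 7.88 and 7.43 against 6.37, 4.91 and 6.09, a difference of 2.21 (SE 0.38). Ptprd, a receptor-type tyrosine phosphatase gene, was at 8.30, 6.76 and 7.39 against 5.82, 5.14 and 5.80, a difference of 1.90. Igfbp5, which encodes a binding protein for insulin-like growth factors, was at 9.73, 8.74 and 8.89 against 7.77, 7.52 and 7.81, a difference of 1.42. In these 3 genes too, replicate 1 was the highest tumor-bearing array. In tumor-free osteoblasts the means of Fgf7, Lepr, Serping1, Ptprd and Igfbp5 were 9.65, 10.33, 9.25, 10.49 and 10.52. The same genes had differences of -0.28, -0.41, -0.13, -0.01 and -0.60 between tumor-bearing and tumor-free osteoblasts.

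Other genes of this group are known from vessel cells. Esm1, which encodes the proteoglycan endocan and is a marker of sprouting tip cells, was at 10.39, 9.38 and 9.37 against 8.54, 7.50 and 7.99, a difference of 1.71 (SE 0.30). Its osteoblast arrays of tumor-free mice were at 10.53 ± 0.04, so that on this array the gene was not restricted to the endothelial gate. Rgs5, a G-protein signalling regulator known from pericytes, was at 7.72, 8.65 and 7.77 against 6.92, 6.34 and 6.77, a difference of 1.37 (SE 0.24), and was at 5.92 ± 0.09 in tumor-free osteoblasts. Tspan14, a tetraspanin gene that partners with the protease ADAM10, was at 8.33, 8.39 and 8.49 against 7.26, 7.81 and 7.49, and at 6.22 ± 0.11 in tumor-free osteoblasts.

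Without replicate 2 of the tumor-free endothelial arrays Tspan14 passed (limma adjusted p = 0.0395). The tetraspanin gene Cd9 (difference 1.05) also differed by 0.87 in osteoblasts. The small nuclear RNA gene Scarna17, which guides RNA modification in Cajal bodies, had a difference of 0.92.

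**Figure D2:**
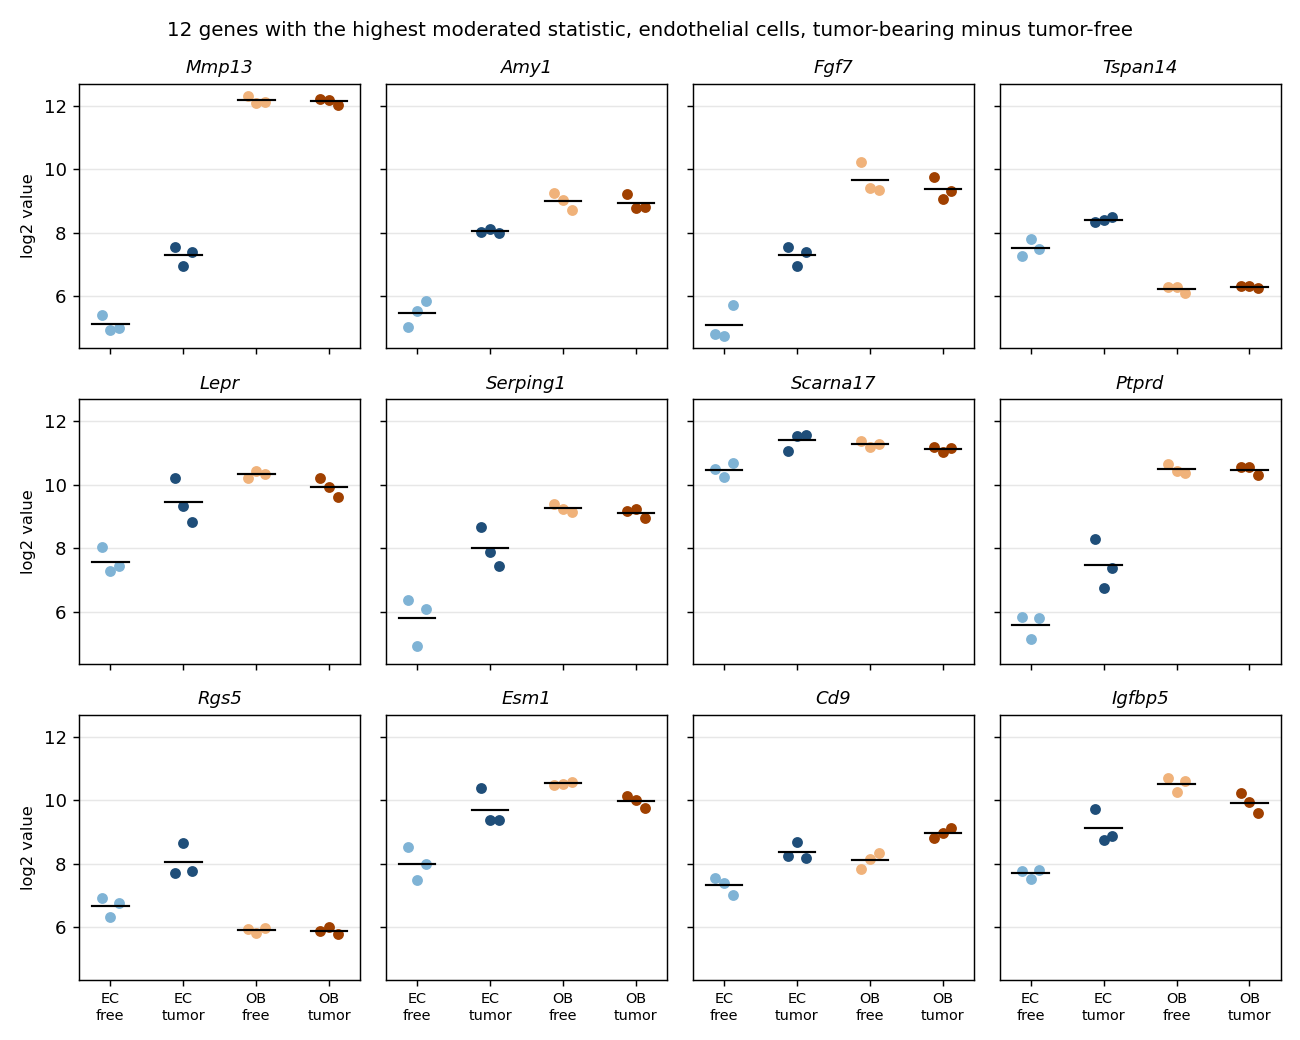
Log2 values (vertical axis) of the 12 genes with the highest moderated statistic in the endothelial comparison, in each of the 12 arrays by group (EC, endothelial cells; OB, osteoblasts; free, tumor-free; tumor, tumor-bearing). Points are arrays and lines are group means (n = 3). In all 12 panels the EC tumor arrays lie above the EC free arrays, which the choice by this statistic favours. Rgs5 and Tspan14 are lowest in the OB arrays.

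At the other end, 0 genes passed as lower with limma. The 12 lowest moderated statistics had differences between -1.81 and -0.70 and adjusted p between 0.122 and 0.455. The arrays of the groups did not overlap, which the choice by this statistic favours. Over all genes the tumor-bearing range lay below in 4.87%. Olfr94, Olfr1396 and Trmt61b passed the filter through the 3 tumor-free endothelial arrays alone, so that a lower value in the other arrays was fixed by the filter. Exosc7, a subunit of the RNA exosome that degrades and trims RNA, was at 6.95, 6.91 and 6.84 against 7.75, 7.91 and 7.93, a difference of -0.96 (SE 0.14, adjusted p = 0.122). Its 3 arrays lay close together in each group. Slc35b1, an endoplasmic reticulum nucleotide transporter gene, had a difference of -0.73, and Psmd5, a chaperone of proteasome assembly, of -0.97. Larger differences were those of the RNA gene 9530091C08Rik (-1.81), the prolactin family gene Prl2c5 (-1.56) and the phospholipid enzyme gene Gdpd1 (-1.46). Lrmda (-1.29), Btbd19 (-0.79), the tRNA methyltransferase gene Trmt61b (-0.80) and the Mediator subunit gene Med30 (-0.84) followed. The odorant receptor genes Olfr94 and Olfr1396 had values of -0.70 and -1.23. In the tumor-bearing arrays Olfr94, Olfr1396, Trmt61b and Lrmda were above the 40th percentile in 0 of 3, so their differences are against dim values.

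**Figure D3:**
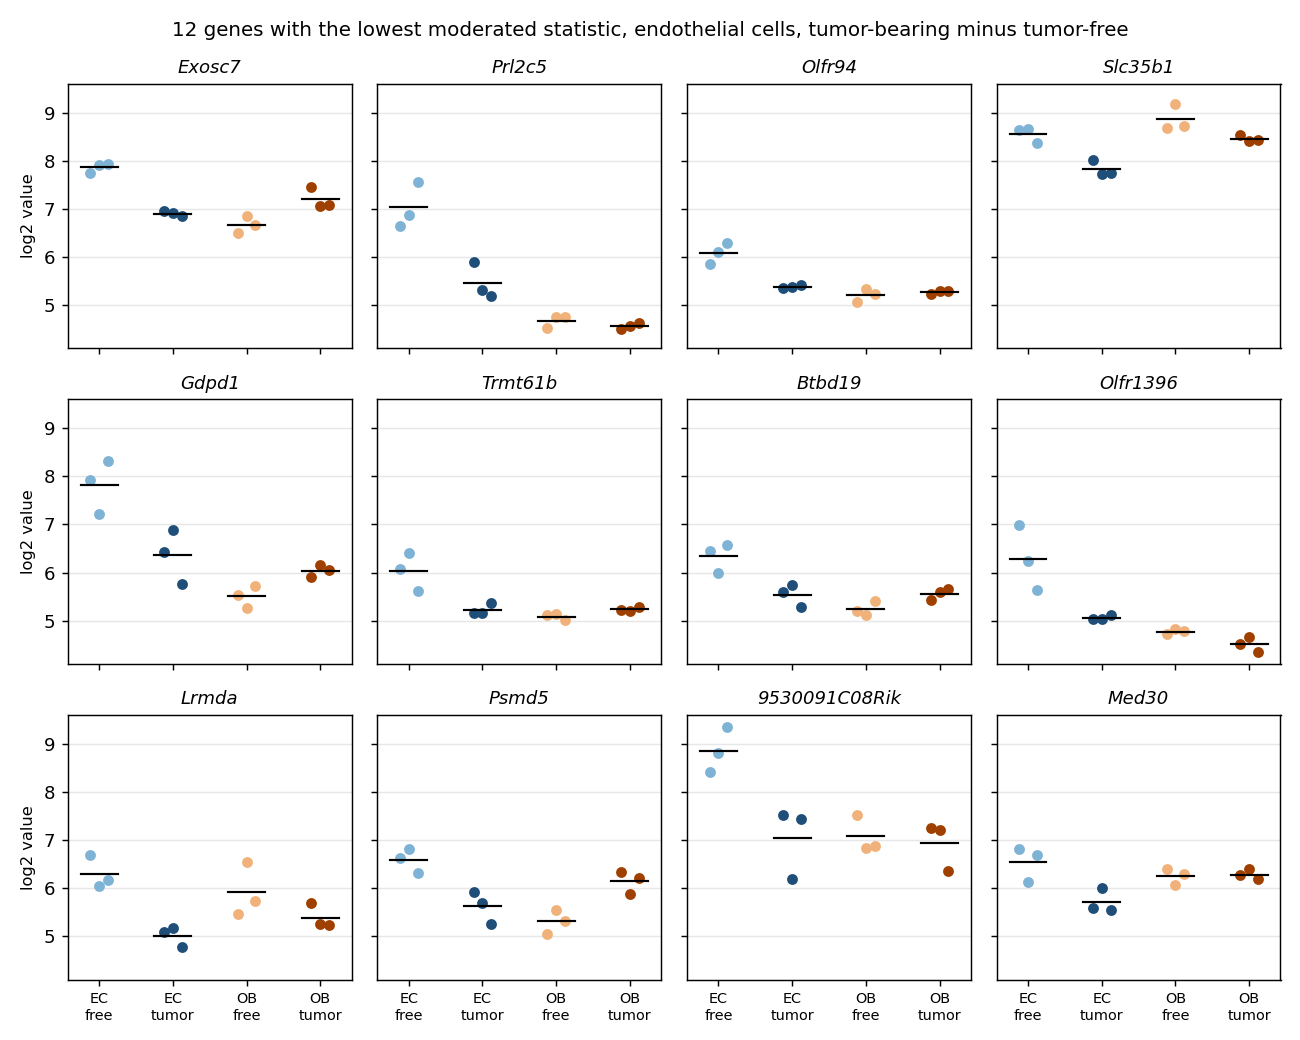
Log2 values (vertical axis) of the 12 genes with the lowest moderated statistic in the endothelial comparison, in each of the 12 arrays by group (EC, endothelial cells; OB, osteoblasts; free, tumor-free; tumor, tumor-bearing). Points are arrays and lines are group means (n = 3). In every panel the EC tumor arrays lie below the EC free arrays, which the choice by this statistic favours. None of these genes passed the test.

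Markers of the reticular stroma of the marrow stood apart in size. Of 12 markers of reticular stroma, all 12 tested members were above 0, where 51.4% of all genes were. Their median difference was 0.65, against 0.0055 over all genes tested. With limma 0 passed after adjustment. Before it, 9 were higher with a p under 0.05, where 2.62% of all genes were, and in 10 the tumor-bearing arrays lay above all tumor-free arrays, where 5.63% of all genes did. The median over the 12 genes was 8.05, 7.97 and 7.51 in the tumor-bearing and 7.08, 6.92 and 7.15 in the tumor-free arrays. It was lower in every endothelial array than in the tumor-free osteoblasts, at 9.04, 8.75 and 8.67. Summed on the linear scale the markers came to 3919 to 6299 intensity units in tumor-bearing and 1597 to 2528 in tumor-free endothelial arrays. The list was chosen with earlier results of these arrays known, so its counts are a description. The part of stromal cells or of their RNA in these differences was not tested.

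Adipoq, which encodes the hormone adiponectin and marks reticular cells that can become fat cells, was at 10.73, 9.58 and 10.23 against 8.74, 7.89 and 9.03. The chemokine gene Cxcl12, which retains blood stem cells in the marrow, was at 10.46, 9.84 and 9.56 against 9.49, 8.10 and 9.11. Kitl, which encodes stem cell factor, was at 8.33, 8.21 and 7.86 against 7.35, 7.36 and 7.33. In these 3 genes the groups did not overlap, and the limma adjusted p were 0.396, 0.845 and 0.902. The chemokine gene Cxcl14 was at 8.70, 9.04 and 7.42 against 7.10, 6.62 and 6.87, the lipoprotein lipase gene Lpl differed by 0.72, the receptor gene Pdgfrb by 0.59 and the transcription factor gene Ebf3 by 0.46. In osteoblasts the differences of Adipoq, Cxcl12, Kitl, Cxcl14, Lpl and Ebf3 were -0.59, -0.41, -0.34, -0.49, -0.61 and -1.03. The difference between the cell types was tested for each gene, and none of these 6 passed.

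Of the wider list of 20 niche factors, which shares 10 tested members with the reticular markers, 19 were tested. Of these 17 were above 0 (51.4% of all genes), with a median of 0.46. The 2 below 0 were Csf1 (-0.02) and Tgfb1 (-0.23). With limma 0 passed over all genes and 10 reached an unadjusted p under 0.05, all upward (2.62% of all genes). Members that are not reticular markers included the angiopoietin gene Angpt1, a ligand that stabilises vessels, at 6.91, 4.82 and 6.16 against 4.92, 3.95 and 4.71. Its arrays overlapped between the groups. The B cell and stromal transcription factor gene Ebf1 differed by 0.68. The stromal growth factor gene Ptn was at 7.15, 7.61 and 7.33 against 6.64, 6.33 and 6.35, with no overlap. The tumor-bearing range lay on top in 5.63% of all genes.

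Markers of other cells in the preparation were read in the same arrays. Osteoblast markers had a median difference of 0.04 over 12 tested members, 8 of them above 0 and 1, Mmp13, called. The bone sialoprotein gene Ibsp was at 10.25, 8.87 and 8.76 against 7.83, 8.26 and 7.90, a difference of 1.29 that did not pass (limma adjusted p = 0.611). The bone transcription factor gene Sp7 had a difference of 0.02, the phosphatase gene Alpl of 0.06 and the collagen gene Col1a1 of -0.02, and the sign of all 3 turned when single arrays were left out. Summed osteoblast markers came to 1558 to 2345 units in tumor-bearing and 1197 to 1264 in tumor-free endothelial arrays, against 18246 to 21982 in tumor-free osteoblasts. Mmp13 and Ibsp are themselves members of that sum, so it is not a separate measure beside Mmp13. The part of osteoblasts or their RNA in the higher Mmp13 was not tested.

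Pericyte and smooth muscle markers had medians of 6.88, 6.89 and 6.92 in the tumor-bearing and 6.20, 6.25 and 6.55 in the tumor-free arrays. Of their 12 tested members 9 were above 0 (51.4% of all genes), with a median of 0.08. At an unadjusted p under 0.05, 3 were higher (2.62% of all genes). These were Rgs5, Pdgfrb and the smooth muscle actin gene Acta2, at 6.80, 7.34 and 7.04 against 6.06, 5.73 and 6.03. The summed level was 5195 to 5576 in tumor-bearing and 4565 to 5192 in tumor-free arrays, and Cnn1 and Higd1b were above the 40th percentile in 0 of 6 arrays. Fibroblast markers had medians of 6.51, 5.65 and 5.81 against 5.39, 5.55 and 5.69. Of 14 tested, 12 were above 0 (median 0.07), where 51.4% of all genes were. The matrix proteoglycan genes Aspn (1.28) and Ogn (1.73) were higher at an unadjusted p under 0.05, where 2.62% of all genes were. Ogn was at 8.19 in replicate 1 and at 5.75 and 5.96 in the other tumor-bearing arrays. The fibroblast genes Lum, Dpt and Tnxb were above the 40th percentile in 0 of 6 arrays. Their summed level was 891 to 1368 against 708 to 919. Adipocyte markers had a median of 0.04 over 10 tested members, 6 above 0, with sums of 7971 to 10308 against 7729 to 8362 and Lep above the 40th percentile in 0 of 6 arrays. Most of that sum came from Fabp4, at 12.46, 12.40 and 12.14 against 12.41, 12.36 and 12.33. In tumor-free osteoblasts the mean of Fabp4 was 7.30, so this sum is not a level of adipocytes alone. Adipoq and Lpl are members of that list as well as of the reticular list.

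No blood cell marker was called. Pan-haematopoietic markers had a median of -0.02 (5 of 10 tested above 0) and summed to 2114 to 2493 against 1809 to 2555, with Cd52, Vav1 and Spi1 above the 40th percentile in 0 of 6 arrays. Macrophage markers had a median of 0.08 (7 of 10) with sums of 3112 to 3678 against 3233 to 3426, and the defining genes Csf1r, Adgre1 and Itgam were not above that percentile in any of the 6 arrays. Most of that sum came from Mrc1, which is also in the sinusoidal endothelial list. It was at 11.53, 11.31 and 11.26 against 11.42, 11.47 and 11.34. Erythroid markers had a median of -0.20, with 5 of 7 below 0. The transferrin receptor gene Tfrc, which proliferating cells also express, was at 5.95, 6.87 and 6.08 against 7.99, 7.52 and 7.26 and did not pass. Neutrophil, megakaryocyte, B cell, and T and NK cell markers had medians of -0.14, 0.22, 0.00 and 0.00, over 11, 7, 7 and 6 tested members. Neutrophil markers summed to 2169 to 2806 against 1471 to 5192, and B cell markers to 605 to 749 against 455 to 1634. Both sums were thus uneven among the tumor-free arrays. Megakaryocyte markers summed to 835 to 961 against 590 to 743, and T and NK cell markers to 346 to 399 against 366 to 389. The neutrophil median was -0.39 without tumor-free replicate 1 and 0.22 without tumor-free replicate 2, the megakaryocyte median 0.01 without tumor-bearing replicate 3, and the pan-haematopoietic median -0.16 and 0.20 without tumor-free replicates 1 and 2. Chondrocyte markers had a median of -0.12 (10 of 13 below 0). Mammary epithelial markers, the lineage of the injected line, had a median of 0.03 (5 of 10 above 0) and summed to 680 to 720 against 705 to 730. Their defining gene Epcam was above the 40th percentile in 0 of 6 arrays. Across these 9 lists limma called 0 members, and at an unadjusted p under 0.05 Cd14 (0.83) and Ebf1 were higher and Tfrc and Alas2 (-0.52) lower. Over all genes 2.62% were higher and 1.97% lower at that threshold.

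**Figure D4:**
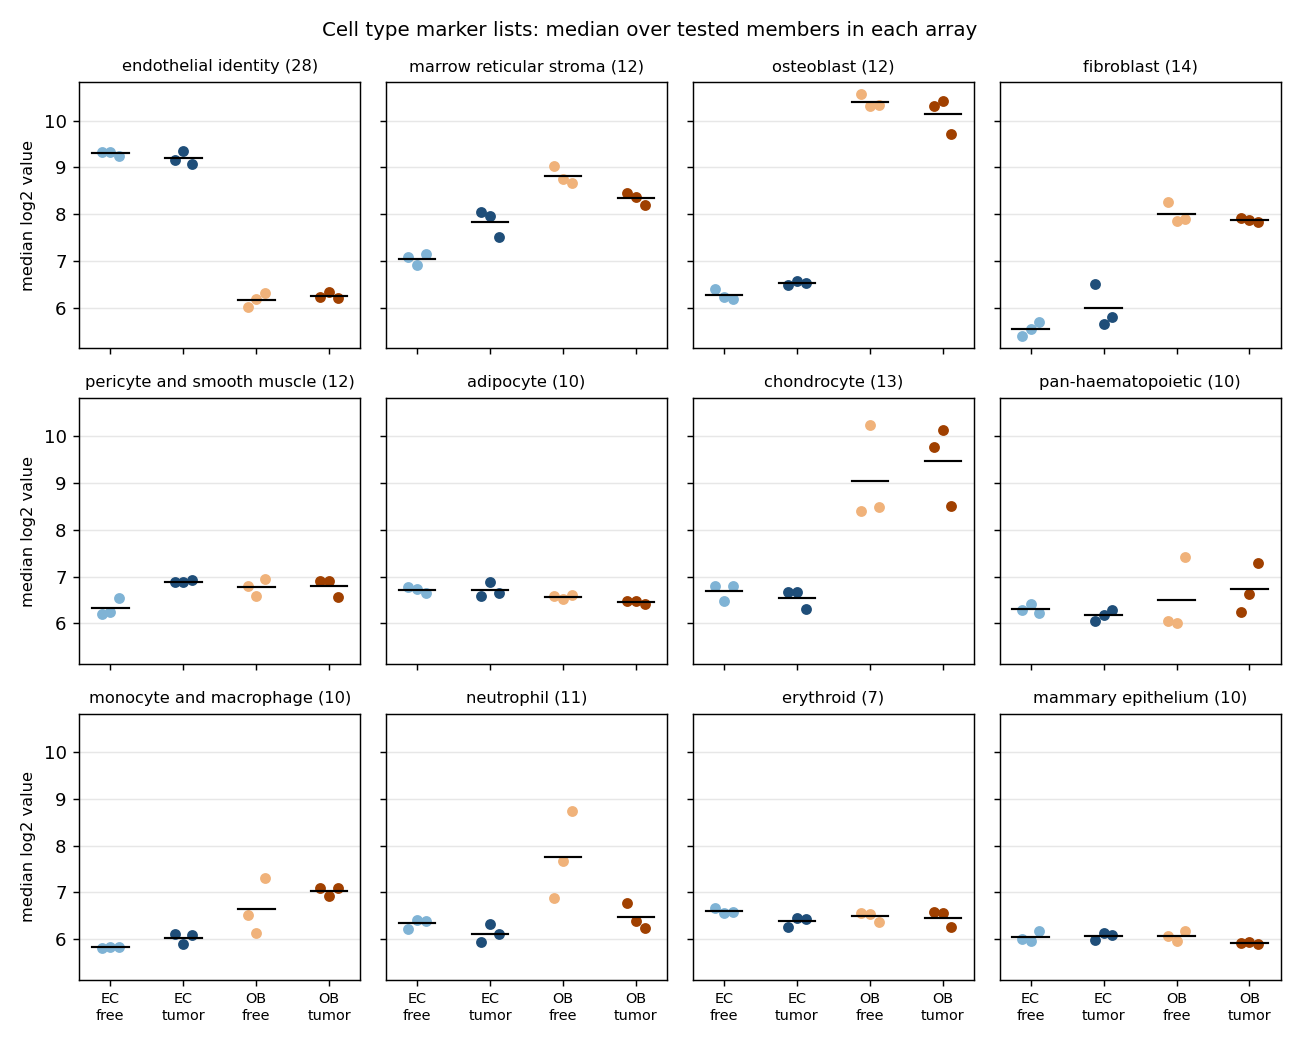
Median log2 value over the tested members of 12 marker lists (vertical axis; number of members in brackets) in each array, by group (EC, endothelial cells; OB, osteoblasts; free, tumor-free; tumor, tumor-bearing). Points are arrays and lines group means (n = 3). Endothelial genes are near 9 in the EC groups and near 6 in the OB groups, and in the reticular stroma list every EC tumor array (7.51 or more) lies above every EC free array (7.15 or less).

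Matrix genes were read by role. Among proteases and their inhibitors, 14 of 20 tested members were above 0 (median 0.14), where 51.4% of all genes were. Mmp13 passed. At an unadjusted p under 0.05 the membrane-bound collagenase gene Mmp14 (0.50) and the inhibitor genes Timp2 (0.36) and Timp4 (0.80) were also higher, where 2.62% of all genes were. Mmp14 was at 9.12, 8.95 and 8.78 against 8.28, 8.39 and 8.68. Among interstitial matrix genes 21 of 26 were above 0 (median 0.19), where 51.4% of all genes were. With limma 0 passed over all genes and 5 were higher unadjusted, where 2.62% of all genes were. Besides Aspn and Ogn these were Col8a1 (0.64), a short-chain collagen gene, Tnc (0.80), which encodes tenascin C, and Postn (0.54), which encodes periostin.

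The basement membrane, which endothelial cells lay down themselves, was above 0 in 11 of 14 members (median 0.14), with 3 higher at an unadjusted p under 0.05 and 0 past by limma over all genes. Over all genes 51.4% were above 0 and 2.62% were higher unadjusted. The laminin gene Lama4 was at 7.48, 8.81 and 8.64 against 7.56, 7.41 and 7.13, so that replicate 1 lay within the tumor-free range. The laminin gene Lamc1 (0.34) and the collagen gene Col15a1 (0.29) had non-overlapping arrays, with the tumor-bearing range on top as in 5.63% of all genes. Lama5 (-0.23) was lower in all 3 tumor-bearing arrays, as in 4.87% of all genes, and had an unadjusted p above 0.05.

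Signalling lists of vessels had medians near 0. In the VEGF pathway 6 of 9 tested genes were above 0 (median 0.07). The lymphatic and venous growth factor gene Vegfc was at 7.28, 7.44 and 7.44 against 6.32, 7.13 and 6.32, a difference of 0.80 that did not pass, and Vegfa had a difference of -0.14. In the angiopoietin and Tie list 4 of 7 were above 0 (median 0.03), with 0 called by limma. Angpt1 (1.44) was the 1 member with an unadjusted p under 0.05, where 4.59% of all genes had one. The orphan receptor gene Tie1 had a difference of -0.44 and Angpt2, an antagonist ligand, of 0.73, with tumor-bearing arrays from 6.84 to 8.70. In the Notch pathway 12 of 15 were above 0 (median 0.15), where 51.4% of all genes were, and 0 passed by limma or at an unadjusted p under 0.05. The ligand gene Dll4 had a difference of 0.20 and the target gene Hes1 of -0.35.

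Of 19 tip cell genes 14 were above 0 (median 0.16), where 51.4% of all genes were. Besides Esm1, the binding protein gene Igfbp3 was at 9.03, 9.81 and 10.03 against 7.96, 8.68 and 8.22. The chemokine receptor gene Cxcr4 was at 8.44, 9.33 and 9.59 against 8.85, 8.44 and 7.62, with overlap. Sinusoidal genes had a median of -0.04 (5 of 16 above 0), with 0 past by limma and 0 at an unadjusted p under 0.05, and arterial and type H genes of 0.08 (12 of 15 tested). The median level in the 6 endothelial arrays was 10.25 to 10.84 for the sinusoidal and 6.80 to 7.44 for the arterial and type H list. Levels of different probe sets do not give the shares of these vessel types. In the arterial and type H list 4 of 15 were higher unadjusted, against 2.62% of all genes: Vegfc, Cxcl12, Kitl and the elastic fibre gene Fbln5 (0.81). The first 3 are also members of other lists.

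Growth factor lists held a few large values. Of 15 tested FGF, IGF and HGF genes 9 were above 0 (median 0.07). Fgf7, Igfbp5, Igfbp3 and the receptor gene Fgfr2 (0.71) were higher and the growth factor gene Hgf (-0.83) lower at an unadjusted p under 0.05. Over all genes 2.62% were higher and 1.97% lower at that threshold. Hgf was at 6.20, 5.34 and 5.30 against 6.59, 5.84 and 6.88. Of 22 TGF-beta and BMP genes 18 were above 0 (median 0.20), where 51.4% of all genes were. Only the BMP antagonist gene Grem1 (0.38) had an unadjusted p under 0.05, where 4.59% of all genes did. Bmp4, a ligand made by stromal and endothelial cells, was at 8.74, 7.71 and 9.01 against 7.50, 7.49 and 8.23. Of 18 Wnt genes 13 were above 0 (median 0.09), and the secreted antagonist gene Sfrp4 was at 9.25, 8.68 and 7.72 against 7.80, 7.22 and 6.91. Sfrp1, of the same family, differed by 0.44. Across these 3 lists limma called 0 members.

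Genes of vascular inflammation were close to the background. The selectin gene Sele, which slows leukocytes on the vessel wall, was at 10.45 ± 0.27 against 10.49 ± 0.21, a difference of -0.04 (95% interval -0.39 to 0.31). Vcam1 differed by 0.23 (-0.24 to 0.70) and Icam1 by 0.08 (-0.33 to 0.48), and the signs of Sele and Icam1 turned when single arrays were left out. Of 13 tested adhesion genes 8 were above 0 (median 0.08). The integrin gene Itgb1 (0.28) was the 1 with an unadjusted p under 0.05, where 4.59% of all genes had one. Inflammatory chemokines and cytokines had a median of 0.08 (8 of 15), NF-kappaB feedback genes of 0.02 (8 of 14) and interferon-stimulated genes of 0.14 (14 of 20). In these 3 lists 0 members passed by limma and 0 had an unadjusted p under 0.05. Irf7, the main interferon regulator, was at 6.85, 6.91 and 6.84 against 6.63, 6.17 and 6.33, without overlap. The tumor-bearing range lay on top in 5.63% of all genes. In the antigen presentation list, with a median of 0.01 (7 of 14), the peptide-loading gene Tapbp (0.53) was higher unadjusted, where 2.62% of all genes were. Of 17 coagulation genes 14 were above 0 (median 0.17), where 51.4% of all genes were. The plasminogen activator gene Plat (0.60) and Serpinf1 (0.40) were higher unadjusted, where 2.62% of all genes were.

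Immediate early genes, which respond within minutes to stimulation and to cell handling, were above 0 in 16 of 19 (median 0.16), where 51.4% of all genes were. Without tumor-free replicate 2 that became 12 of 19, with a median of 0.03. Of the 19 genes, 3 were higher at an unadjusted p under 0.05 (2.62% of all genes): Klf6 (0.39), Atf3 (0.82) and Egr2 (0.90). Egr2 was at 10.59, 10.34 and 10.72 against 9.98, 8.97 and 9.99. Cell cycle genes leaned the other way, with 21 of 26 tested members below 0 (median -0.19), where 48.6% of all genes were. The thymidylate synthase gene Tyms (-0.42) was the 1 with an unadjusted p under 0.05, where 4.59% of all genes had one. The proliferation marker gene Mki67 was at 6.73, 7.06 and 6.96 against 7.53, 7.38 and 7.07. Its tumor-bearing range lay below, as in 4.87% of all genes, and its unadjusted limma p was 0.116. Without replicate 1 of the tumor-bearing arrays the cell cycle median was -0.08, with 14 of 26 below 0, so the lean of the list rested largely on that array. Across both lists limma called 0 members.

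**Figure D5:**
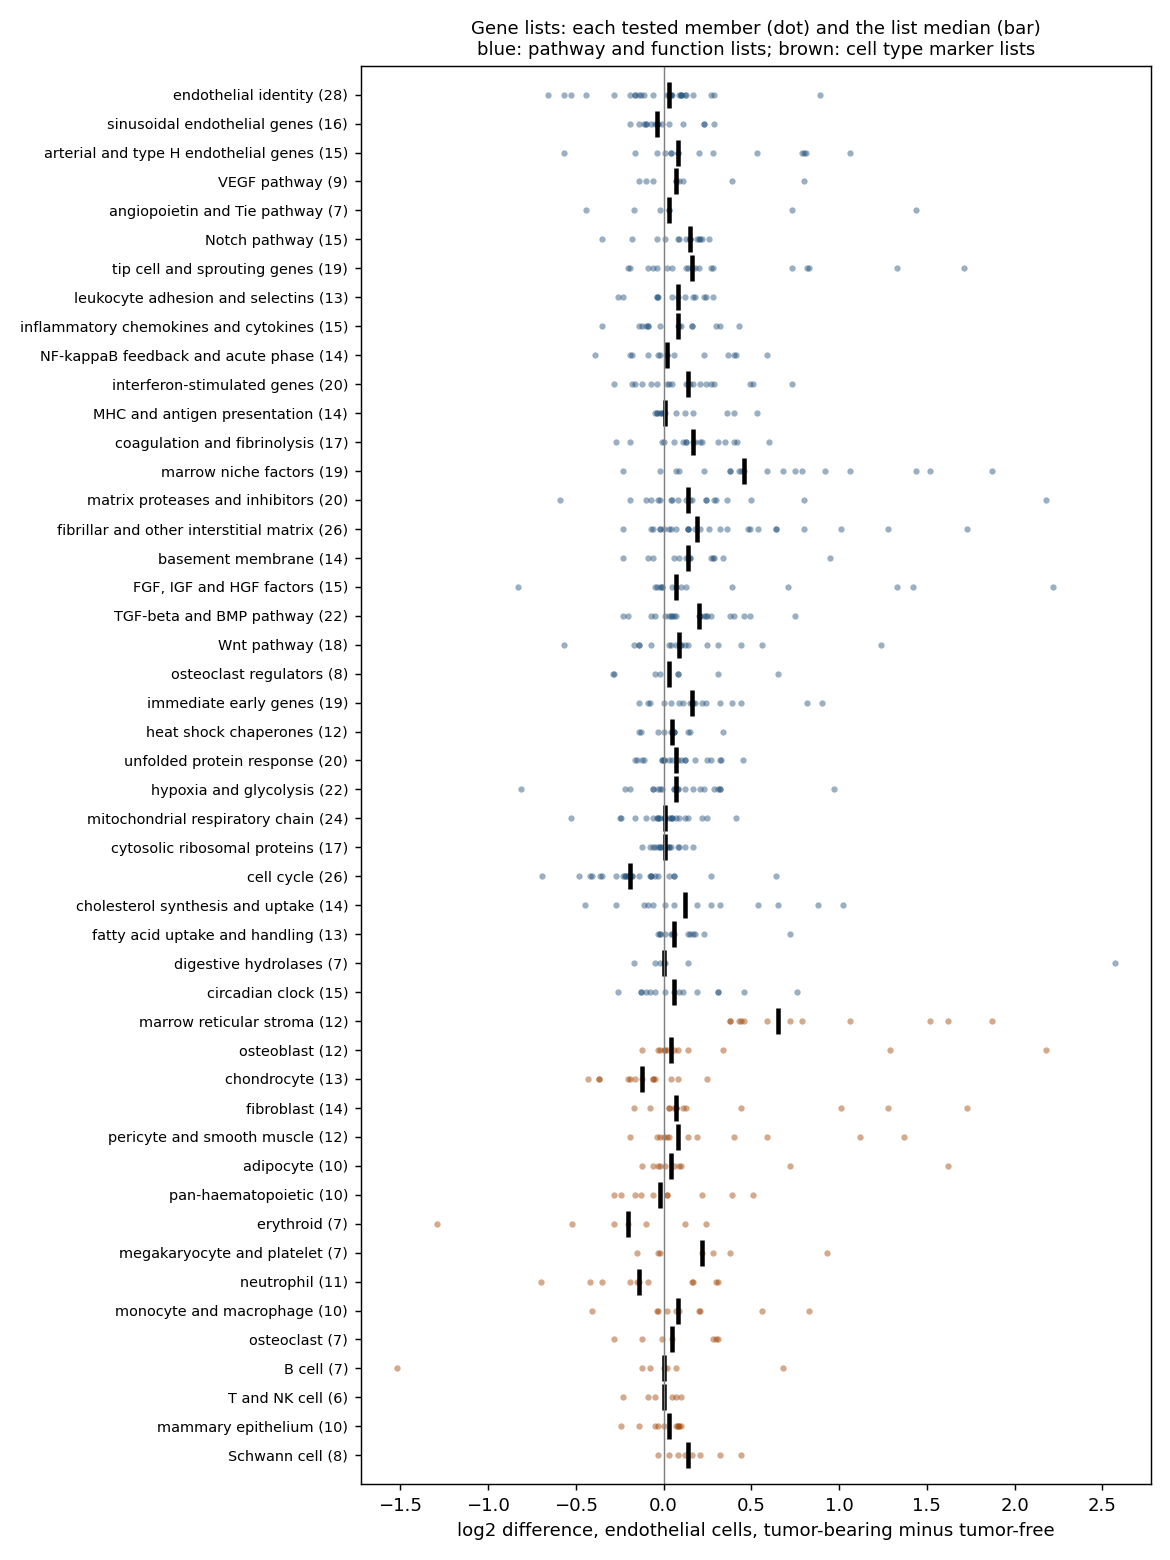
Log2 differences, tumor-bearing minus tumor-free endothelial cells (horizontal axis), of each tested member (dots) of the 48 gene lists (vertical axis, number of tested members in brackets), with the list median as a bar; blue lists are pathways or functions and brown lists are cell type markers. The median of the reticular stroma list (0.65) and of the niche factors (0.46) lie farthest from 0, and most other medians lie between -0.2 and 0.2.

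The tumor differences of the 2 cell types were compared in the same limma fit. The difference of effects passed in 4 genes, 0.0281% of those tested, and 6.47% had an unadjusted p under 0.05. For Amy1 the endothelial difference exceeded the osteoblast difference (-0.06) by 2.64 (limma adjusted p = 0.0179). For Mmp13 the osteoblast difference was -0.04 and the difference of effects 2.22 (limma adjusted p = 0.0179). All tumor-free endothelial values of Mmp13 lay below the 40th percentile, and with them set to it the endothelial difference was 1.71. In osteoblasts Mmp13 was at 12.13 ± 0.09 and 12.16 ± 0.13 (n = 3). The log2 differences of the cell types thus start from unlike levels, and a small added intensity would hardly show in osteoblasts. Exosc7 differed by -0.96 in endothelial cells and 0.52 in osteoblasts, a difference of effects of -1.48 (adjusted p = 0.0472). Chil1, the gene of a secreted lectin related to chitinases, was at 6.26 ± 0.12 against 6.27 ± 0.11 in endothelial cells (n = 3) and differed by 3.32 in osteoblasts, a difference of effects of -3.34.

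These 4 calls depended on the arrays and on the model. The labels do not say whether endothelial and osteoblast arrays came from the same mice. Amy1 passed in 12 and Mmp13 in 11 of 20 alternatives, Chil1 in 13 and Exosc7 in 5. Without replicates 1, 2 or 3 of the tumor-bearing endothelial arrays the adjusted p of Amy1 were 0.0925, 0.0953 and 0.0859, and those of Mmp13 were 0.0925, 0.0133 and 0.0859. Without tumor-free endothelial replicates 2 and 3 those of Amy1 were 0.0631 and 0.0350 and those of Mmp13 0.0631 and 0.0701. With an osteoblast array left out (tumor-bearing 2 and 3, then tumor-free 1 and 3), Amy1 had 0.0663, 0.0527, 0.0679 and 0.0364 and Mmp13 0.0562, 0.0527, 0.0679 and 0.0503. Over all 20 alternatives the adjusted p of Chil1 lay between 0.00463 and 0.163 and that of Exosc7 between 0.0434 and 0.222. Next in order and without a call were Ebf3 and the myelin-family gene Gpm6b (0.44 in endothelial cells and -0.98 in osteoblasts) upward, and Eif3m and Psmd5 downward.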

How the data were processed

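The deposited table holds log2 expression values of 34760 probe sets on 12 arrays. Per the submitters' processing notes the authors used affy. The sources used here give neither its version nor the probe summary or normalization. No further scaling was applied to the deposited log2 values. Amplified RNA of few cells can distort transcript proportions, and values near an array's floor understate differences. The number of arrays limits the precision.

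A platform annotation gave a single symbol to 21640 probe sets, several to 1321 and none to 11799. Symbols were updated through Entrez numbers in a RefSeq gene table (GRCm38.p6), which matched 21553. The brightest probe set stood for a gene, which left 19937 genes, and 14217 passed the filter. A gene that passed through osteoblast arrays could be dim in all endothelial arrays. limma 3.58.1 (R 4.3.3) fitted the 4 group means over the 12 arrays (eBayes, prior degrees of freedom 2.36), two-sided, with Benjamini-Hochberg adjustment and a threshold of 0.05. Figures used matplotlib 3.10.9.

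Named were the genes called, those with the 12 highest and 12 lowest moderated statistics, at most 4 genes from a list by smallest p, the leading genes of the difference of effects and a panel of sort, endothelial, adhesion and stromal genes. Of that panel Selp has no probe set with a single symbol and is not analysed here. Lists (48, with 817 memberships, 689 tested) were described by counts and medians, without a test. Members and lists were chosen with earlier results of these data known. The steps were tested on simulated data.

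The alternatives were a rescaling (quantile normalization or median centring), another filter (none, or the 60th percentile), the mean over a gene's probe sets, a robust eBayes with a trend, array weights, the replicate number as a block, the 6 endothelial arrays alone with and without that block, a difference of at least 1, all probe sets in 1 fit, and each array left out.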

Additional observations from a re-analysis of the deposited data

Results flagged for a closer look

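The tumor effect differed between endothelial cells and osteoblasts by the test of that difference in 4 genes, with values of 2.64 for Amy1, 2.22 for Mmp13, -1.48 for Exosc7 and -3.34 for Chil1 (endothelial minus osteoblast effect, log2). Each lost its call in some alternatives. Mmp13 was below the 40th percentile in the tumor-free endothelial arrays and at 12.16 ± 0.13 in tumor-free osteoblasts (n = 3), so its differences start from unlike levels.

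Outside the gene test, 9 probe sets had an adjusted p under 0.05 in the limma fit of all 22714 filtered probe sets. The amylase probe set 10501494, which names several genes, was higher in endothelial cells of tumor-bearing mice by 3.01. The other 8 have no gene symbol in the annotation used, and all 8 were lower in tumor-bearing mice. Whether these 8 measure a transcript of a gene cannot be told here. Their differences were -2.76 (10342395), -1.71 (10343179), -3.42 (10343368), -3.23 (10343669), -2.01 (10343724), -2.13 (10533401), -1.89 (10546508) and -1.66 (10548139). In 5 of the 8, the first 4 and 10546508, every tumor-bearing array lay below the 40th percentile, so those differences are against dim values. With such values set to that percentile they were -2.36, -0.24, -1.17, -0.09 and -1.35. Of these, 10342395, 10343179, 10343368 and 10546508 passed the filter through the tumor-free endothelial arrays alone. The tumor-free arrays varied more than the tumor-bearing arrays in 7 of the 8, as for 10342395 (7.89 ± 0.81 against 5.13 ± 0.15, n = 3).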

How the results depend on the processing

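The count of 2 called genes held within 1.5 times in most alternatives. It became 11 probe sets with all probe sets in 1 fit (3 higher, 8 lower). The 8 lower are those without a gene symbol, and 4 of them passed the filter through the tumor-free endothelial arrays alone. In the limma fit of the 6 endothelial arrays with the replicate block the count was 0, with 943 at an unadjusted p under 0.05. Mmp13 and Amy1 were both at an adjusted p of 0.33 there. The count ranged from 2 to 6 when single arrays were left out. With the replicate block in the fit of all 12 arrays it stayed at 2, and the count for the difference of effects fell from 4 to 1 (adjusted p of 0.0251 for Mmp13, 0.175 for Amy1, 0.163 for Chil1 and 0.212 for Exosc7). That count ranged from 0 to 7 when single arrays were left out. Same-numbered arrays of the 2 endothelial groups had correlations of deviations of 0.0516, -0.00901 and 0.074. Those of the 2 cell types in 1 condition lay between -0.0521 and 0.0197. These values cannot decide whether same-numbered arrays share mice or a batch, since the spread of single arrays also keeps such correlations low. The labels do not say. Median centring and quantile normalization moved the median difference by 0.035 and 0.037.

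Uncalled genes near 0 changed sign. Chil1 was at 0.02 with quantile normalization and with median centring and at 0.01 with array weights, Col1a1 at 0.01 with median centring, and Itgav at -0.03 and Icam1 at 0.00 with array weights. When single arrays were left out, the differences ranged from -0.08 to 0.03 for Chil1, -0.12 to 0.03 for Col1a1, -0.19 to 0.57 for Itgav, -0.09 to 0.18 for Icam1, -0.05 to 0.14 for Tek, -0.06 to 0.27 for Alpl, -0.05 to 0.11 for Pecam1, -0.20 to 0.04 for Sele, -0.23 to 0.03 for Cdh5, -0.13 to 0.07 for Kdr and -0.15 to 0.23 for Sp7. The median of the reticular stroma list stayed between 0.52 and 0.78 and that of the niche factors between 0.39 and 0.57 over 22 alternatives. Other medians ranged from -0.39 to 0.22 for neutrophil, -0.16 to 0.20 for pan-haematopoietic, 0.01 to 0.31 for megakaryocyte, 0.02 to 0.17 for interferon-stimulated and 0.03 to 0.24 for immediate early genes. Digestive hydrolases ranged from -0.04 to 1.29, the latter with the 60th percentile filter, which left 2 members.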

Other observations

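Genes of cell stress and metabolism, compared in the same way, held no call with limma over all genes. In the unfolded protein response list 13 of 20 tested members were above 0 (median 0.07), where 51.4% of all genes were. At an unadjusted p under 0.05, 2 were higher, where 2.62% of all genes were. The disulfide isomerase gene Pdia6 was at 9.06, 9.04 and 9.20 in tumor-bearing against 8.48, 8.83 and 8.63 in tumor-free endothelial arrays, and the chaperone gene Canx at 11.52, 11.43 and 11.46 against 11.22, 11.18 and 11.20. In the hypoxia and glycolysis list (14 of 22 above 0, median 0.07) the groups did not overlap for a pair of regulators with opposite signs. Over all genes the groups did not overlap in 10.5%. Pdk1, which limits entry of pyruvate into mitochondria, was at 7.37, 6.93 and 6.48 against 7.90, 7.84 and 7.46. Pfkfb3, which drives glycolysis in endothelial sprouting, was at 8.22, 9.04 and 9.03 against 8.12, 7.86 and 7.41.

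Heat shock chaperones, respiratory chain and cytosolic ribosomal protein genes had medians of 0.05, 0.01 and 0.01, with 0 at an unadjusted p under 0.05. Cholesterol synthesis and clock genes had medians of 0.12 and 0.06, also with 0. Fatty acid genes had a median of 0.06 over 13 tested members, with Lpl the 1 under that threshold, which 4.59% of all genes reached. Among osteoclast regulators (4 of 8 above 0, median 0.03) the CSF1 receptor ligand gene Il34 was at 7.49, 6.49 and 6.78 against 6.29, 6.11 and 6.42. Osteoclast markers had a median of 0.05 over 7 tested members and Schwann cell markers of 0.14 over 8, with Gpm6b the 1 under the threshold in the latter.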
